A study of Mus musculus with 2 samples.

Results

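Complement is the set of plasma and cell-surface proteins that tags microbes, debris and damaged cells for removal, and the 9 genes described here encode parts of it or its regulators: C1qa, C1qb, C1qc, C3, C4b, Cfb, Serping1, Cd59a and Clu. They were chosen by name, with earlier results of these data known. Each value comes from a probe set (a group of short probes on the array that reads 1 transcript) whose platform annotation gives that gene's symbol and no other. By this rule 7 of the 9 genes, of 18194 genes in all, had 13 probe sets of 34958. C4b had only a probe set shared with C4a, and no probe set was named for C3, which was not analysed here. Lens RNA from wild-type mice of strain C57/BL6 was compared between P7 and P60 (7 and 60 days after birth), with no treatment. Lenses were pooled at each age and the pool was read on 1 array. Values have no replicates, no test between the ages was possible and differences are given by size. The number of arrays limits the precision, and in a pool of whole tissue fewer cells of a type and less RNA per cell cannot be told apart.

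In the classical pathway, C1q binds to a target and starts a cascade of proteases that cleaves C4 and then C3. The alternative pathway amplifies C3 cleavage through factor B, the product of Cfb. Because activated complement also harms the body's own cells, hosts carry brakes: the C1 inhibitor (Serping1) blocks the first proteases, CD59 on the membrane stops pore assembly, and clusterin (Clu) binds the terminal complex and also acts as an extracellular chaperone. The lens has no blood vessels of its own after the fetal hyaloid vessels around it regress in early postnatal life.

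Signals are in the arbitrary units of the array software. The floor, below which a signal was not read as a level, was 103.9, the median over both arrays together, and a gene or probe set was measured when it exceeded the floor on at least 1 array. Log2 ratios of P60 over P7 were taken after lower signals had been set to the floor. At P60 the regulators Serping1, Clu and Cd59a had higher signals than at P7, and the C1q genes lay near or under the floor at both ages. In all, 6 of the 7 genes were measured. Of these, 3 (Serping1, Clu and Cd59a) were at least 2-fold higher at P60, where 11.5% of all 13029 measured genes were, and 0 were at least 2-fold lower, where 9.44% of all were. Of the 13 probe sets 10 were measured, 6 of them past 2-fold upward and 0 downward, beside 9.89% and 10.6% of all 22462 measured probe sets with 1 symbol. The median log2 ratio of the 6 genes was 0.47, and that of all measured genes was 0.02. With only 6 genes, this median lies midway between 3 genes below 0 and 3 genes above 1 and describes none of them.

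**Figure D1:**
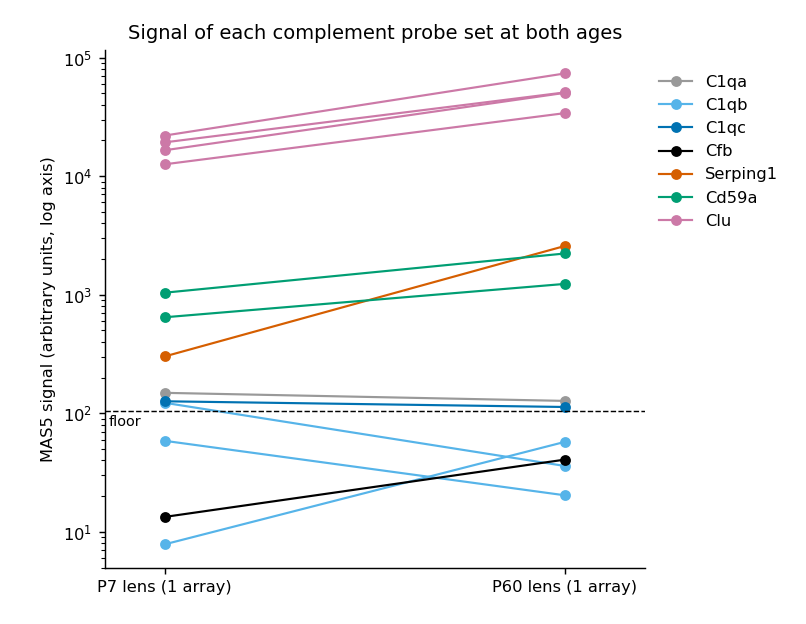
MAS5 signal (log axis) of the 13 complement probe sets in the P7 and the P60 lens pool, 1 line per probe set, coloured by gene, with the floor of 103.9 as a dashed line. The 4 Clu lines, the 2 Cd59a lines and the Serping1 line run upward from P7 to P60, while the C1q and Cfb lines lie near or under the floor.

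Facts of the arrays that touch these values were few. The array medians were 112.9 at P7 and 93.89 at P60. The lens was clearly present in both pools, with 11 of 11 lens markers measured and Cryba1, a beta-crystallin, at 71167 and 66644. The ratio of 5′ to 3′ signal for beta-actin, a sign of RNA integrity, was 0.785 at P7 and 0.606 at P60, and its part in the results below was not tested.

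The start of the classical pathway was represented by the 3 C1q genes, whose products, the A, B and C chains, assemble into 1 hexameric molecule with collagen-like stalks. Tissue macrophages and microglia are their usual source. In the RefSeq annotation the 3 genes are neighbours, with 0 protein-coding genes between C1qa and C1qc and 0 between C1qc and C1qb. C1qa (probe set 1417381_at) had a signal of 149 at P7 and 127 at P60, a log2 ratio of -0.23. C1qc (1449401_at) had 126 at P7 and 113 at P60, a log2 ratio of -0.16. Both genes were thus just above the floor at both ages and differed by less than the SD of 0.58 that log2 ratios showed between probe sets of the same gene, pooled over 4239 genes on these arrays. That SD is taken over all signal levels and holds no variation between pools or arrays of the same age. For scale, 86 probe sets for receptors of smell, pheromones and taste, which the lens is not known to use, had a 95th percentile of 122.8, so the C1qc signal lay on both sides of it.

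C1qb had 3 probe sets, of which 1 was above the floor, at P7 only. On 1434366_x_at the signal was 122.6 at P7 and 36.0 at P60, under the floor, so that it was at least 1.18-fold lower. On 1417063_at it was 58.6 and 20.4, and on 1437726_x_at 7.86 and 57.4, both under the floor at both ages, so no fold is given. With a floor of 50 units C1qb stood at -1.29 on the first of these, so its ratio depends on where the floor is set. The C1q ratios also sat in the middle of other probe sets at their level: 54.8% of 4733 measured probe sets within 0.5 of C1qa in mean log2 signal had a ratio at least as high, and 51.7% of 4486 around C1qc did.

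The upstream sequences of C1qb and C1qc are shown because both genes encode chains of the same molecule and both lay near or under the floor. They cover the 250 bases before the start of each gene from RefSeq (build GRCm38.p6, minus strand), at chr4:136886201-136886450 for C1qb and chr4:136892915-136893164 for C1qc, with motif matches in capitals. Of the 9 genes, 4 had an entry in the promoter table used.
C1qb: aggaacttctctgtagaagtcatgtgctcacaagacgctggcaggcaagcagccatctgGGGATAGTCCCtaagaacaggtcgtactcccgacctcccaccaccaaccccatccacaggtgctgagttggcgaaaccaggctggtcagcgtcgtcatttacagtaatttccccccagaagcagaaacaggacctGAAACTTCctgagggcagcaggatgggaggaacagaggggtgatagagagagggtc
C1qc: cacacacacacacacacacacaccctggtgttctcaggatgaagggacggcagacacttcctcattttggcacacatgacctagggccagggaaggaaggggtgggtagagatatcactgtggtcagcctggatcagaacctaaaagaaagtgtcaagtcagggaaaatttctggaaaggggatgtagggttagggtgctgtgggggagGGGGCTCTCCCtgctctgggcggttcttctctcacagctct
The motifs searched on both strands were a loose NF-kappaB site (GGG and CC with 5 bases between them), the core of the interferon response element (GAAA and GAAA with 2 bases between them), TTCNNNGAA, a STAT site, and GAANNTTC, a pair of heat shock units. C1qb had overlapping NF-kappaB matches on both strands, 191 to 181 bases before the start, and GAAACTTC, 56 to 49 bases before it. C1qc had overlapping NF-kappaB matches 41 to 31 bases before the start. Such a loose NF-kappaB match is common, as 45.8% of 32851 windows of this length held one, whereas 6.69% held the heat shock pair. A match describes letters and is no evidence of binding.

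Further down the cascade little was measured. Cfb, the protease of the alternative pathway (1417314_at), had a signal of 13.4 at P7 and 40.7 at P60, under the floor at both ages, so no fold is given. The probe set shared by C4a and C4b (1418021_at) had 37.4 at P7, under the floor, and 673 at P60, at least 6.48-fold higher. C4b encodes the C4 protein that the C1 proteases cleave, and C4a a close copy of it that the RefSeq table lists as a transcribed pseudogene. The signal cannot be divided between them, and it was not counted among the genes above.

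The inhibitor of the first step showed the widest difference of the 6 measured genes. Serping1 encodes the C1 inhibitor, a serpin that inactivates C1r, C1s and the lectin pathway proteases as well as contact-system proteases. Its only probe set (1416625_at) read 302 at P7 and 2576 at P60. This was 8.53-fold higher in the adult lens, a log2 ratio of 3.09, above the floor at both ages. Among 3354 other measured probe sets of similar mean signal, 13 (0.388%) had a ratio at least as high, and their ratios had an SD of 0.88. With a single probe set, no second reading of the same transcript was at hand.

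**Figure D2:**
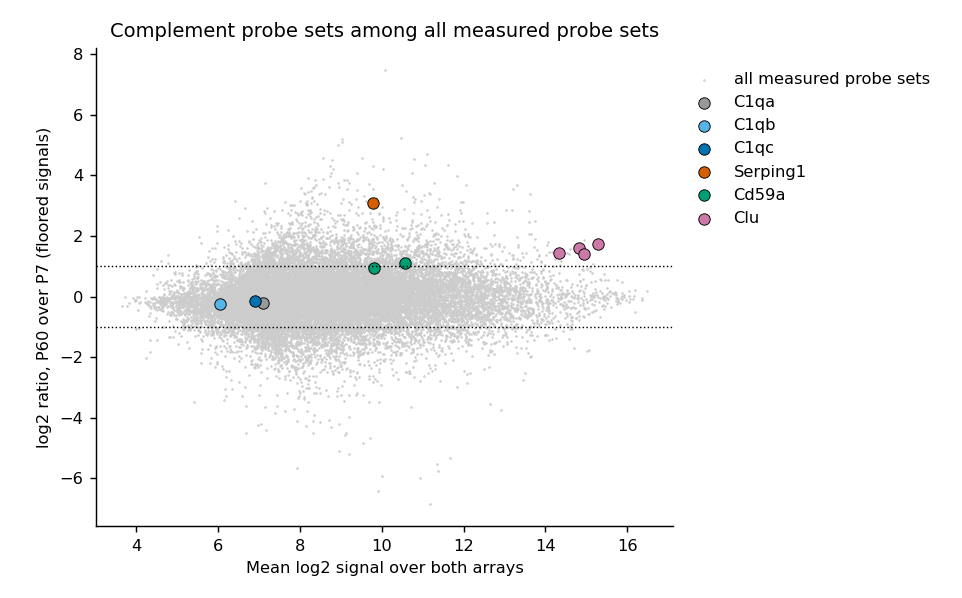
Log2 ratio of P60 over P7 on floored signals against mean log2 signal over both arrays, for the 22462 measured probe sets with 1 symbol (grey) and the 10 measured complement probe sets (coloured by gene), with dotted lines at a 2-fold difference. Serping1 lies at 3.09 in the upper edge of the cloud, and the 4 Clu points lie at high signal, where most grey points are close to 0.

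Clusterin was read by 4 probe sets, all higher at P60. On 1418626_a_at the signal was 12585 at P7 and 33970 at P60, or 2.70-fold. On 1437458_x_at it was 16530 and 50377, or 3.05-fold, and on 1437689_x_at 19271 and 50812, or 2.64-fold. On 1454849_x_at it was 21993 and 73412, or 3.34-fold, the highest mean signal of the 4 and therefore the value that stands for the gene (log2 ratio 1.74). On each of the 4 the P60 signal exceeded the P7 signal. The 4 log2 ratios had a median of 1.52, ran from 1.40 to 1.74 and had an SD of 0.16, narrower than the pooled 0.58 between probe sets of a gene. They read the same RNA on the same arrays and are not replicates of the pools. The suffix _x_at marks probe sets with probes that can also bind other transcripts, and the 1 Clu probe set without it gave 2.70-fold.

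Clu signals lay near the top of the scale, which ended at 88698 on the P7 and 97477 on the P60 array. Differences of this size were uncommon there. Of 112 other measured probe sets within 0.5 of 1454849_x_at in mean log2 signal, 2 (1.79%) stood past 2-fold upward, and 1 had a ratio at least as high as 1.74. Around 1418626_a_at, the dimmest of the 4, 17 of 218 were at least 2-fold higher and 6 had a ratio at least as high as its 1.43.

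Cd59a encodes a membrane-anchored protein that blocks the last step, the joining of C9 into a pore. Its probe set 1418710_at had a signal of 1040 at P7 and 2226 at P60, 2.14-fold higher. The other, 1429830_a_at, had 645 and 1233, 1.91-fold higher. The log2 ratios of 1.10 and 0.93 thus lie on either side of the 2-fold limit, 0.16 apart, and Cd59a was the gene closest to that limit. About as large a ratio was not rare at this level: 246 of 2478 other probe sets (9.93%) around 1418710_at had a ratio at least as high. On this measure Cd59a stood less apart than Serping1 or Clu, a description without a test. Cd59b, a second copy of the gene that lies next to it in RefSeq with 0 protein-coding genes between, had no probe set of its own.

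The upstream sequence of Cd59a is shown as the only one at hand for a gene that stood above 2-fold. It lies at chr2:104095551-104095800 (GRCm38.p6, plus strand, 250 bases before the start, from RefSeq), again with motif matches in capitals.
Cd59a: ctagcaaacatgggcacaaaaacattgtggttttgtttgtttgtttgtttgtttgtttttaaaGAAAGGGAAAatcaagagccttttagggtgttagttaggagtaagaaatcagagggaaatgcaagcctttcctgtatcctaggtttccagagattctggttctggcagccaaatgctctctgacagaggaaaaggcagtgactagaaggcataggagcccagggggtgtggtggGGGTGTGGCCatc
The match GAAAGGGAAA, 187 to 178 bases before the start, has the letters of the interferon response element core, which 2.98% of windows held. An NF-kappaB match, GGGTGTGGCC, lies 13 to 4 bases before the start. None of the 3 sequences printed here holds a match to the STAT motif, which 7.02% of windows held, a statement about these letters in these windows alone.

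The wider complement system was read from a list by role, of which 46 genes had a probe set of their own, the 7 genes above included. Of these 22 were measured, 5 (22.7%) at least 2-fold higher at P60 and 0 lower, beside 11.5% and 9.44% of all measured genes, and their log2 ratios had a median of 0.26, beside 0.02 for all. Without a floor, with every gene of the 46 counted, 10 were higher and 8 lower, beside 15.2% and 19.9% of all 18194 genes. The 5 include the 3 members, whose choice was made with their values known. The 24 not measured include the liver-made terminal components, of which 5 of 6 were under the floor at both ages. Soluble regulators held most of the higher genes, 3 of 3 measured, but 5 of the 8 with a probe set were not measured. Serping1 and Clu are members, and the other, Vtn, was above the floor at P60 only. Of the membrane regulators 1 of 4 measured was higher, the member Cd59a. In the initiation group 1 of 9 measured was at least 2-fold higher, and in the alternative, terminal and receptor groups 0 of 1, 0 of 1 and 0 of 4.

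Outside the named members, 2 of 16 measured genes of the list (12.5%) were at least 2-fold higher, a share near the 11.5% of all measured genes. The 2 were C1s1 and Vtn. C1s1 encodes the protease C1s, which C1r activates and the C1 inhibitor blocks. Its probe set, marked _s_at because it can bind transcripts of related genes, had 97.7 at P7, under the floor, and 416 at P60, at least 4.0-fold higher. Vtn encodes vitronectin, a matrix and plasma protein that, like clusterin, binds the terminal complex. It had 66.6 at P7, under the floor, and 458 at P60, at least 4.41-fold higher, and its other probe set had 28.5 and 173.5, at least 1.67-fold higher. Within 2-fold, the brightest were Calr, a chaperone that can bind C1q, at 9055 and 10764, and Cr1l, the rodent membrane regulator Crry, at 1133 and 1210. Cr1l thus had a log2 ratio of 0.10 beside 1.10 for Cd59a, both regulators on the cell membrane.

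Cd93, once described as a C1q receptor and now known mainly from endothelium, was singled out after its values were seen. Its brightest probe set by mean log2 signal had 159 at P7 and 127 at P60, a log2 ratio of -0.32, and this value stands for the gene in the counts. On a pair of other probe sets it had 1005 and 860 at P7 and 5.28 and 5.99 at P60, at least 9.67-fold and 8.28-fold lower. By probe set rather than gene, 8 of 35 measured in the list were at least 2-fold higher and 2 lower. Of all measured probe sets with 1 symbol, 9.89% were higher and 10.6% lower. Among the 8 higher ones 6 were those of members, and both of the lower ones were those of Cd93. Of 8 vascular endothelial markers 6 were measured, and 6 of these were at least 2-fold lower (median -1.84), 5 of them with a P60 signal under the floor. The signals of these 6 summed to 3195 at P7 and 461 at P60. Their part in the Cd93 values was not tested.

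**Figure D3:**
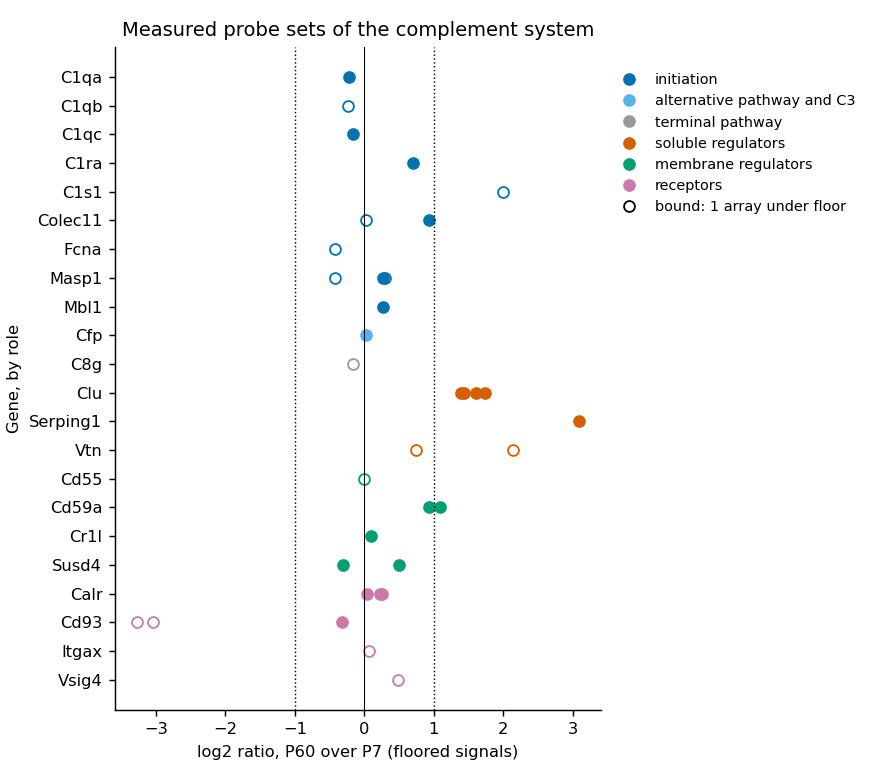
Log2 ratio of P60 over P7 on floored signals for each of the 35 measured probe sets of the complement system list, 1 row per gene, coloured by role, with open circles for bounds and dotted lines at a 2-fold difference. The soluble regulators Clu, Serping1 and Vtn, the protease C1s1 and 1 of the 2 Cd59a probe sets hold points to the right of the upper line, and a pair of Cd93 points lies to the left of the lower one.

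Markers of cells that pooled lenses could carry are given for comparison with these results, from lists of their own, with signals summed over the measured genes of each. Macrophage and microglia markers, the cells that usually make C1q, were measured for 10 of 15 genes. Of these 0 were at least 2-fold higher and 1 (Fcer1g) lower, the median log2 ratio was -0.26, and the signals of these 10 summed to 1942 at P7 and 1491 at P60. At P60 5 of the 10 were under the floor, and 7 ratios are bounds. In the same pools C1qa and C1qc had log2 ratios of -0.23 and -0.16. The -0.24 of C1qb is a bound, since its P60 signal was under the floor. Aif1 and Cd68, defining markers of these cells, were under the floor at both ages. Csf1r had 420 and 429 on its brightest probe set, but 262 and 153, and 204 and 268, on others. Markers of this list went both ways. Cd163 (94.5 and 164) and Lyz2 (82.3 and 146) had higher signals at P60, and Mrc1 (173 and 33.1) and Fcer1g (218 and 97.4) lower ones. Fibroblast and ciliary body markers went both ways, with 2 of 3 measured at least 2-fold higher and 1 lower (median 1.11, summed signal 3473 and 7506). Most of this sum was Pdgfra (2732 and 5892). Col1a2 had 174 and 1604 on its brightest probe set, and Mgp had 566 and 10.4. Col1a1, Dcn and Lum were under the floor at both ages. Of 5 astrocyte and Müller glia markers 2 were at least 2-fold higher and 1 lower (median 0.32, summed signal 3068 and 9512, most of it Glul with 2033 and 7040). Pigment epithelium markers were split, 1 higher and 2 lower of 5 measured (median -0.13, summed signal 2108 and 3374). The higher sum rests on Oca2 (290 and 2502), while Tyrp1 had 764 and 182 and Pmel 503 and 234. Liver markers, listed for plasma-protein transcripts, were measured for 2 of 5 genes, with Alb under the floor at both ages (median 0.48, summed signal 902 and 1623). The 2 were Ttr (667 and 1406) and Apoa2 (235 and 218). Erythroid markers were measured for 2 of 4 genes, with a summed signal of 352 at P7. Both lay under the floor at P60, and their ratios (median -0.76) are bounds that do not show whether they passed 2-fold. Lens markers had a median of -0.04 (summed signal 564234 and 574930), with 1 of 11, Foxe3, at least 2-fold lower. Several interferon response genes are induced together with complement genes in other tissues. Of 12 measured from this list, 2 were at least 2-fold higher and 0 lower (median 0.34, summed signal 3562 and 4954). The 2, Gbp2 (52.1 and 559) and Ifit3 (73.7 and 225), were under the floor at P7, and 6 of the 12 ratios are bounds. The part of these cells and signals in the Serping1, Clu and Cd59a values was not tested.

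**Figure D4:**
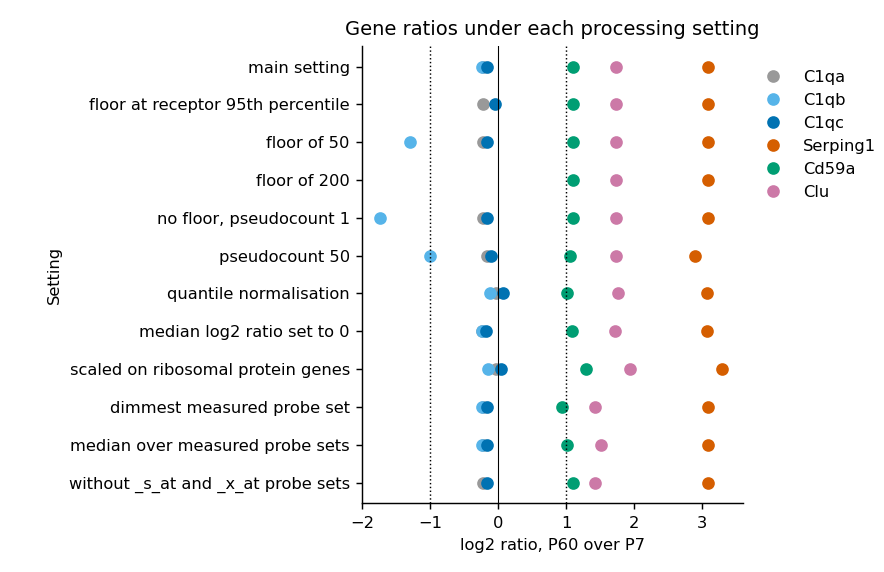
Log2 ratio of P60 over P7 for each measured complement gene (colours) under the main setting and 11 other processing settings (rows), with dotted lines at a 2-fold difference. A missing point means that the gene was not measured in that setting. Serping1 stays between 2.90 and 3.29 and Clu between 1.43 and 1.94, while C1qb moves with the floor.

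The order of the 3 higher genes did not depend on the settings tried. Serping1 ran from 2.90 to 3.29 over 11 settings, Clu from 1.43 to 1.94 and Cd59a from 0.93 to 1.30. Cd59a reached 2-fold in 10 of the 11, the exception being its dimmer probe set. C1qa was below 0 in 10 of 10 settings that measured it and C1qc in 8 of 10, with values from -0.24 to -0.03 and from -0.18 to 0.07. Scaling on ribosomal protein genes raised the median of all genes from 0.02 to 0.21 and turned the split of all genes from 1494 higher and 1230 lower to 2023 and 885, and C1qc was above 0 in it, as it was with quantile normalisation.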

How the data were processed

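RNA of pooled lenses from 2 ages, 1 array each, was measured on a mouse array of 45101 probe sets. The authors deposited linear signal intensities made with MAS5, per the submitters' processing notes. Its version and settings and any detection calls were not given in the sources used here. After trimming 2% of probe sets at each end, the mean intensity was 500.0 on both arrays. The platform annotation gave 1 symbol for 34958 probe sets, several for 932 and none for 9211, and 34754 of the first matched a current mouse gene.

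Values were floored at the median of both arrays, and a gene was counted by its brightest probe set (mean log2 signal). Named genes were every member, list genes at least 2-fold higher or lower, and the 2 brightest within 2-fold. Cd93 was added after its values were seen, and marker genes are named as examples of their lists. The members, gene lists and rules were chosen with earlier results of these data known. The calculation was tested on simulated data. Alternatives were other floors, pseudocounts, scalings and choices of probe set. The planned protein comparison was not run, for want of a protein table. Python 3.11.15, pandas 2.3.3 and numpy 2.4.6 were used.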

Additional observations from a re-analysis of the deposited data

Results flagged for a closer look

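The probe set shared by C4a and C4b lies outside the rule that named the genes, and it carried a signal. It read 37.4 at P7, under the floor, and 673 at P60, at least 6.48-fold higher. It was set apart because it holds signal in data that no count above uses. Other shared probe sets of complement genes, those of Cd55 with Cd55b, Cd55b with Cd55os and C1ra with C1rb, were under the floor on both arrays.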

How the results depend on the processing

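With 1 array per age, a log2 ratio or median was read as moved when it differed from the main one by more than 0.58, the SD between probe sets of a gene. This limit does not apply to counts, which are given as they stood. The ratios of Serping1, Clu, Cd59a, C1qa and C1qc did not move under any of the alternatives that measured them. Members at least 2-fold lower numbered 1 in place of 0 (C1qb) with a floor of 50 (log2 ratio -1.29), a pseudocount of 50 (-1.01) and no floor (-1.74). Of all genes 13.0%, 11.5% and 19.9% were lower in these settings. Members at least 2-fold higher ran from 2 with the dimmest probe sets to 4 without a floor, where Cfb is counted too. Of all genes 9.16% and 15.2% were higher in these settings. Member probe sets at least 2-fold higher numbered 3 in place of 6 without _s_at and _x_at probe sets, since fewer are left. There 11.2% of all genes were higher. Member probe sets higher numbered 8 without a floor and 7 with scaling on ribosomal protein genes, where 15.2% and 15.5% of all genes were higher. Those lower numbered 1, 1 and 2 with a floor of 50, a pseudocount of 50 and no floor, beside the 13.0%, 11.5% and 19.9% of all genes. The members' median of 0.47 became 1.10 with the receptor floor, without a floor and without _s_at and _x_at probe sets, and 1.74 with a floor of 200, which leaves out the C1q genes. In the complement list 5 genes were at least 2-fold higher, but 10 without a floor and 3 with the dimmest probe sets, where 15.2% and 9.16% of all genes were. Of the same list 0 were lower, but 8 without a floor, where 19.9% of all genes were. It had 1 lower each with a floor of 50, a pseudocount of 50, the dimmest probe sets and the median over probe sets. In these settings 13.0%, 11.5%, 10.4% and 8.36% of all genes were lower. The median of the list, 0.26, became 1.06 with a floor of 200. Apart from the set-ups named, the cause was not tested. Signals under the floor carry no order, so Cfb and most of C1qb cannot be compared between the ages. No paired analysis was possible because each age has 1 array.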
